A study of Mus musculus with 15 samples.

Results

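The growth cone genes described here are Gap43, Basp1, Marcks, Marcksl1, Nrep, Uchl1, Plppr1, Plppr3, Plppr4 and Plppr5. These 10 genes of the 53801 in the count table were chosen by name, from earlier results on these same libraries, as genes of growth cones and neurite outgrowth. Their differences between the groups are therefore a description. No p-value is printed for them, and where the number of them past a threshold is counted, it stands beside the share of all genes past it and supports nothing. The libraries came from primary adult neural stem cells (aNSCs) of 2-month-old mice on a C57BL6/J-129sv background, taken from the subventricular zone and grown in suspension with growth factors. The aNSCs fell into 3 groups of 5 cultures. The first held untreated cultures of the genotype Trrap Fl/+; Rosa26-CreERT2 tg, from mice 19, 24, 26, 35 and 36. The second held cultures of the same 5 mice treated with 4-OHT (4-Hydroxytamoxifen), for 5 days by the labels (the study's methods give a shorter exposure followed by fresh medium), and the third held 4-OHT-treated cultures of the genotype Trrap Fl/Fl; Rosa26-CreERT2 tg, from mice 27, 28, 29, 37 and 39. Trrap encodes a large scaffold protein of histone acetyltransferase complexes. Rosa26-CreERT2 is a Cre recombinase expressed in most cells that enters the nucleus on binding 4-OHT and cuts between loxP sites. Every culture carried this transgene, and the Fl/+ controls also carried a floxed Trrap allele, so treated controls could lose 1 copy. No group of untreated Fl/Fl cultures entered these comparisons. Poly(A) RNA was measured in bulk, so fewer cells of a type and less RNA per cell cannot be told apart.

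A growth cone is the motile tip of an extending axon or dendrite. Actin at its edge pushes the membrane forward, and microtubules behind it stabilise the new process. GAP43, BASP1, MARCKS and MARCKSL1 are acidic, lipid-anchored proteins that lie under the plasma membrane and bind phosphoinositides and calmodulin. MARCKS and MARCKSL1 are released from the membrane by phosphorylation or calmodulin. NREP, also called P311, is a small protein found in regenerating neurons and known to raise translation of TGF-beta. UCHL1 is a neuronal deubiquitinating enzyme. The PLPPR proteins resemble lipid phosphate phosphatases, span the membrane several times and promote filopodia and neurite branching.

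The libraries held 25720034 to 32187097 counts assigned to genes. Levels are given in CPM, which are counts set to a common library total after TMM scaling, a factor that corrects for differences in RNA composition. Trrap stood at 193, 214, 184, 179 and 181 CPM in the untreated Fl/+ cultures of mice 19, 24, 26, 35 and 36. After 4-OHT the same mice gave 138, 204, 171, 165 and 142 CPM, and the Fl/Fl mice 27, 28, 29, 37 and 39 gave 92.9, 115, 142, 89.2 and 82.8 CPM. Trrap was lower in Fl/Fl than in Fl/+ after 4-OHT (log2 fold change -0.64, SE 0.160, edgeR adjusted p = 0.0115). The Fl/Fl culture of mouse 29 lay within the range of the treated controls. The library labelled mouse 39, female, held Y-linked transcripts (54.0 CPM of Ddx3y) and little Xist (0.313 CPM), and the libraries of mouse 36, labelled male, held Xist at 5.89 CPM untreated and 74.7 CPM after 4-OHT beside Ddx3y at 47.7 and 52.9 CPM. Counts of calls are therefore also given without these mice.

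Per kilobase of merged exon, which allows levels to be compared between genes, the 10 genes spanned a wide range in untreated Fl/+ aNSCs. Marcksl1 led with 406 ± 97.4 CPM per kb (SD, n = 5), followed by Marcks with 277 ± 53.4 and Basp1 with 120 ± 33.6. Uchl1 (57.7 ± 7.62), Nrep (51.5 ± 5.25) and Gap43 (44.1 ± 8.44) formed a middle group whose neighbours overlapped in range, as did Marcksl1 and Marcks. The Plppr genes were the lowest, from Plppr5 with 9.07 ± 2.14 CPM per kb, through Plppr1 (2.48 ± 1.04) and Plppr3 (1.88 ± 1.24), whose ranges overlapped, to Plppr4 with 0.0726 ± 0.0530. After 4-OHT the Fl/+ cultures had Gap43 at 120 ± 44.0 CPM per kb, above Uchl1 and overlapping Basp1. In Fl/Fl, Plppr4 with 0.360 ± 0.166 CPM per kb stood beside Plppr3 with 0.289 ± 0.0944, and their ranges overlapped.

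Of the 10 genes, 7 had a promoter window in RefSeq (GRCm38.p6), here the 250 bases before the annotated start. They were searched on both strands for GGGCGG, the GC box that Sp1 binds, and for CACGTG, an E-box. A GC box was present in 2 of the 7 windows, those of Basp1 and Plppr1, against 32.7% of 32851 RefSeq windows, and an E-box in 0 of 7, against 6.0%. The longest stretch free of annotated exons was 61 bases in the Plppr1 window, and its matches lay outside it. That stretch was 28 bases for Uchl1 and 0 for Plppr5. A match is a stretch of letters and not a measured binding site. The exon-free parts of 4 windows are shown 5′ to 3′, with GC boxes in capitals, because the RNAs of Basp1, Marcksl1 and Plppr3 were lower in Fl/Fl while that of Plppr4 was higher. They lie at chr15:25413765-25414014 on the minus strand for Basp1, chr4:129513331-129513580 on the plus strand for Marcksl1, chr10:79874722-79874884 on the minus strand for Plppr3 and chr3:117360877-117361126 on the minus strand for Plppr4.
Basp1: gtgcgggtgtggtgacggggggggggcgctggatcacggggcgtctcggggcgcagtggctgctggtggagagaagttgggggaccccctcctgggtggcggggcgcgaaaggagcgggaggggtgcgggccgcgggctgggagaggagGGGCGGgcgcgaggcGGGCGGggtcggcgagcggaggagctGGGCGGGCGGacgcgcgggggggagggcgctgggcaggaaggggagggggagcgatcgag
Marcksl1: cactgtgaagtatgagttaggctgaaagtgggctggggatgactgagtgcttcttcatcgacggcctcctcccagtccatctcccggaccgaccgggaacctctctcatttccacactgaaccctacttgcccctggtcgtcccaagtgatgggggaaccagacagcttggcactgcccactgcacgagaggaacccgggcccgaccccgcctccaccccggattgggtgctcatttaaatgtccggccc
Plppr3: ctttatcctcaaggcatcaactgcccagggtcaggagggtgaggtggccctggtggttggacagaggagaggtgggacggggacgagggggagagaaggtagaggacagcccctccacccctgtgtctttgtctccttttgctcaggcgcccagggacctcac
Plppr4: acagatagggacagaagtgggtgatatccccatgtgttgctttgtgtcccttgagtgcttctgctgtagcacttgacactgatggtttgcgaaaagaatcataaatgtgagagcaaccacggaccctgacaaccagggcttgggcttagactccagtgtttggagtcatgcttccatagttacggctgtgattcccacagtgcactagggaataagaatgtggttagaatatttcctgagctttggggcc
Basp1 held 4 matches, of which the 2 nearest the start overlap, in a window of 78.8% GC. The windows of Marcksl1 (60.4% GC), Plppr3 (64.4%) and Plppr4 (48.0%) held none.

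Setting treated Fl/Fl against treated Fl/+ cultures asks how aNSC transcripts differ once both Trrap alleles can be deleted. In it 7 of the 10 growth cone genes were called lower in Fl/Fl, at an adjusted p under 0.05 in edgeR. Of all 15036 genes tested, 15% were called lower and 16.8% higher. Plppr4 was called higher, but it had 5 to 28 counts in treated Fl/+ libraries. It passed the filter on low counts through the Fl/Fl group, so its call is not counted. The groups did not overlap for 7 of the 10, Plppr4 among them, beside 22.6% of all genes tested. Since the genes were selected on these libraries, nothing is read from either count. The median log2 fold change of the 10 was -0.82, beside 0.02 over all genes tested. The levels by library are shown for each gene.

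**Figure D1:**
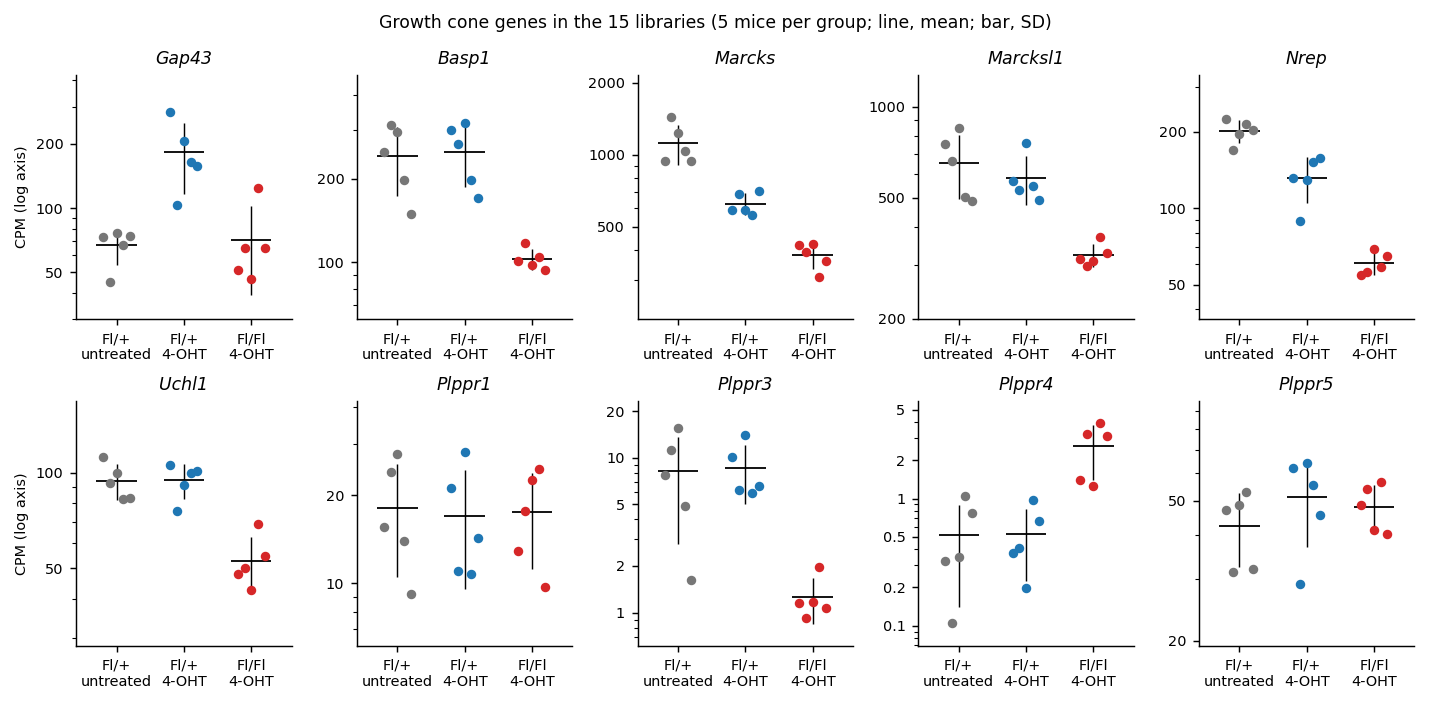
CPM of the 10 growth cone genes in each library on log axes, by group (grey, Fl/+ untreated; blue, Fl/+ with 4-OHT; red, Fl/Fl with 4-OHT), with mice in rising number from left to right, the mean as a line and the SD as a bar. Basp1, Marcks, Marcksl1, Nrep, Uchl1 and Plppr3 were lower and Plppr4 higher in every Fl/Fl culture than in every treated Fl/+ culture, and Plppr1 and Plppr5 overlapped in all groups.

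Gap43, a protein kinase C substrate of axon growth cones, was the gene of the 10 with the largest log2 fold change between treated and untreated controls. The untreated Fl/+ cultures of mice 19, 24, 26, 35 and 36 had 73.0, 44.9, 76.4, 67.1 and 74.1 CPM. With 4-OHT they had 283, 103, 207, 164 and 158 CPM, each above every untreated culture. The Fl/Fl cultures of mice 27, 28, 29, 37 and 39 had 51.1, 65.0, 46.2, 124 and 65.1 CPM. The culture of mouse 37 lay above the lowest treated control, that of mouse 24, and the other 4 lay below all treated controls. Gap43 was 2.58-fold lower in Fl/Fl than in treated Fl/+ (log2 fold change -1.37, SE 0.303) and 2.73-fold higher in treated than in untreated Fl/+ (1.45, SE 0.241). Against untreated Fl/+ the Fl/Fl cultures differed by 0.08 (95% interval -0.47 to 0.63), and by -0.23 without mouse 37.

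Basp1, which shares the lipid-anchored, calmodulin-binding design of GAP43, was lower in both comparisons with Fl/Fl. It stood at 249, 311, 295, 198 and 149 CPM in the untreated Fl/+ cultures and at 299, 267, 316, 199 and 170 CPM in the treated ones. In Fl/Fl it stood at 101, 117, 98.1, 105 and 93.4 CPM, below every Fl/+ culture of either kind. The log2 fold change was -1.27 (SE 0.163) against treated and -1.21 (SE 0.179) against untreated Fl/+. Between treated and untreated Fl/+ it was 0.06 (95% interval -0.43 to 0.55). Cultures of mice 35 and 36 had less Basp1 than those of mice 19, 24 and 26 both with and without 4-OHT.

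Marcks, which binds actin and phosphoinositides and is released from the membrane by protein kinase C, was lower at each step. Untreated Fl/+ cultures had 943, 1445, 1232, 1037 and 945 CPM, treated ones 589, 685, 586, 560 and 706 CPM, and Fl/Fl cultures 420, 393, 424, 308 and 360 CPM. No pair of groups overlapped. The log2 fold change was -0.84 (SE 0.135) for 4-OHT in Fl/+, -0.70 (SE 0.108) for Fl/Fl against treated Fl/+, and -1.54 (SE 0.144) for Fl/Fl against untreated Fl/+. Its smaller relative Marcksl1 had 752, 664, 850, 505 and 488 CPM untreated and 570, 532, 761, 548 and 492 CPM treated, which overlapped (-0.16, 95% interval -0.54 to 0.21). In Fl/Fl it had 315, 299, 311, 371 and 329 CPM, below every Fl/+ culture, with a log2 fold change of -0.82 (SE 0.119) against treated and -0.99 (SE 0.155) against untreated Fl/+.

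Nrep also stood lower at each step. It had 224, 169, 196, 213 and 203 CPM in untreated Fl/+, 132, 88.9, 129, 152 and 157 CPM in treated Fl/+, and 54.7, 56.0, 69.0, 58.9 and 64.9 CPM in Fl/Fl. The 3 groups did not overlap. The treated cultures differed from the untreated by -0.61 (SE 0.144) and the Fl/Fl from the treated Fl/+ by -1.10 (SE 0.139) on the log2 scale. The difference between Fl/Fl and untreated Fl/+, -1.71 (SE 0.0995), was a 3.28-fold lower level.

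Uchl1 had 112, 92.8, 100, 82.5 and 83.2 CPM in untreated and 106, 75.5, 91.2, 99.5 and 101 CPM in treated Fl/+ cultures, which overlapped throughout (log2 fold change 0.01, 95% interval -0.24 to 0.26). The Fl/Fl cultures had 47.8, 50.2, 42.7, 69.0 and 54.4 CPM, all below the lowest Fl/+ culture. The log2 fold change was -0.83 (SE 0.127) against treated and -0.82 (SE 0.134) against untreated Fl/+.

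The 4 Plppr genes did not move together. Plppr3 had 7.74, 11.2, 15.5, 4.89 and 1.62 CPM in untreated Fl/+, 10.04, 6.17, 14.0, 5.93 and 6.52 CPM in treated Fl/+ and 1.15, 0.918, 1.18, 1.97 and 1.08 CPM in Fl/Fl, from 27 to 51 counts in a Fl/Fl library. Every Fl/Fl culture lay below every treated control, but that of mouse 37 lay above the untreated culture of mouse 36. It was 6.72-fold lower in Fl/Fl than in treated Fl/+ (log2 fold change -2.75, SE 0.306), the largest difference among the 10. Between treated and untreated Fl/+ the log2 fold change was 0.06 (95% interval -0.995 to 1.12).

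Plppr4, also known as PRG-1 and found at excitatory synapses, went the other way from a level close to the detection floor. It had 0.326, 0.105, 0.350, 1.04 and 0.773 CPM in untreated and 0.372, 0.412, 0.198, 0.971 and 0.670 CPM in treated Fl/+, from 3 to 28 counts in a library. In Fl/Fl it had 1.40, 3.20, 1.25, 3.90 and 3.13 CPM, from 38 to 101 counts, above every Fl/+ culture. A floor of 3 counts corresponded to 0.0932 to 0.117 CPM, depending on the library, so counting error was wide in the controls. The log2 fold change was 2.29 (SE 0.441) against treated and 2.32 (SE 0.529) against untreated Fl/+, a 4.89-fold and a 5.00-fold higher level. Cultures of mice 35 and 36 had more Plppr4 than those of mice 19, 24 and 26, with and without 4-OHT.

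Plppr1 and Plppr5 overlapped across all groups. Plppr1 ranged from 9.20 to 27.5 CPM in untreated Fl/+, from 10.7 to 28.0 CPM in treated Fl/+ and from 9.76 to 24.6 CPM in Fl/Fl, with a log2 fold change of 0.05 (95% interval -0.64 to 0.75) for Fl/Fl against treated Fl/+. Plppr5 ranged from 31.4 to 53.1 CPM, from 29.0 to 64.3 CPM and from 40.3 to 56.5 CPM, with -0.08 (95% interval -0.50 to 0.35) for the same comparison and 0.27 (95% interval -0.21 to 0.76) for 4-OHT. Plppr2, a family member outside the 10, had 86.0, 81.4, 125, 77.5 and 70.2 CPM in treated Fl/+ and 118, 122, 145, 121 and 122 CPM in Fl/Fl. It rose by a log2 fold change of 0.53 (SE 0.144, adjusted p = 0.0172, edgeR) in Fl/Fl, with the culture of mouse 26 inside the Fl/Fl range. Against the untreated Fl/+ cultures, which ranged from 64.7 to 117.8 CPM, it rose by 0.49 (SE 0.145, adjusted p = 0.0236, edgeR), and those groups did not overlap. Between treated and untreated Fl/+ Plppr2 differed by -0.03 (95% interval -0.43 to 0.37, adjusted p = 0.939, edgeR).

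**Figure D2:**
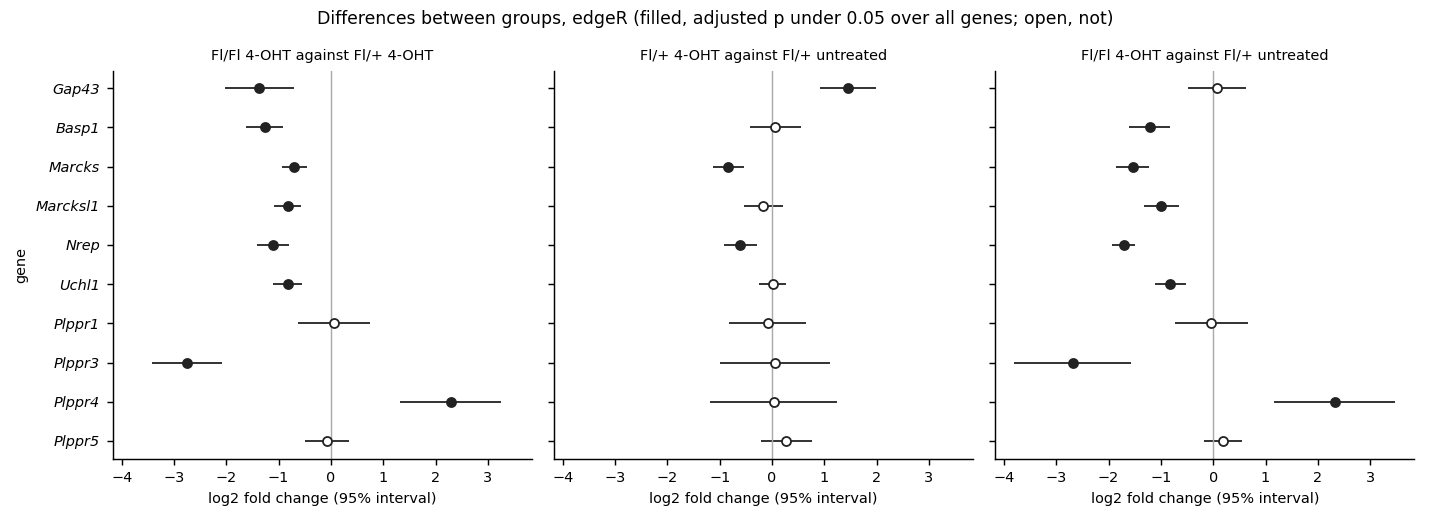
Log2 fold changes of the 10 growth cone genes with 95% intervals in the 3 comparisons between groups, filled where the edgeR adjusted p over all genes was under 0.05 and open where it was not. Gap43 is at -1.37 for Fl/Fl against treated Fl/+ and at 1.45 for 4-OHT in Fl/+, Plppr3 and Plppr4 stand at opposite ends of both panels with Fl/Fl, and no p-value is attached to genes chosen from these libraries.

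The comparison of treated with untreated Fl/+ cultures of the same mice asks what 4-OHT with Cre and a single floxed allele goes with. Of the 10 genes, Gap43 was called higher and Marcks and Nrep lower, where 7.34% of all 14821 genes tested were called higher and 6.45% lower. Their groups were also the 3 that did not overlap, beside 12% of all genes tested. Within mice, Gap43 was higher after 4-OHT in 5 of 5, by 1.09 to 1.95 on the log2(CPM + 0.5) scale. Marcks was lower in 5 of 5 mice, by -1.08 to -0.42, and Nrep in 5 of 5, by -0.93 to -0.37. Plppr5 was higher in 4 of 5 and Basp1 in 4 of 5, with median differences of 0.39 and 0.10, while Marcksl1 and Uchl1 were each higher in 2 of 5. Trrap itself was lower in 5 of 5 mice, by -0.48 to -0.06. Its log2 fold change was -0.21 (SE 0.110, adjusted p = 0.234, edgeR) in the fit without the mouse as a block, which does not use the pairing.

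**Figure D3:**
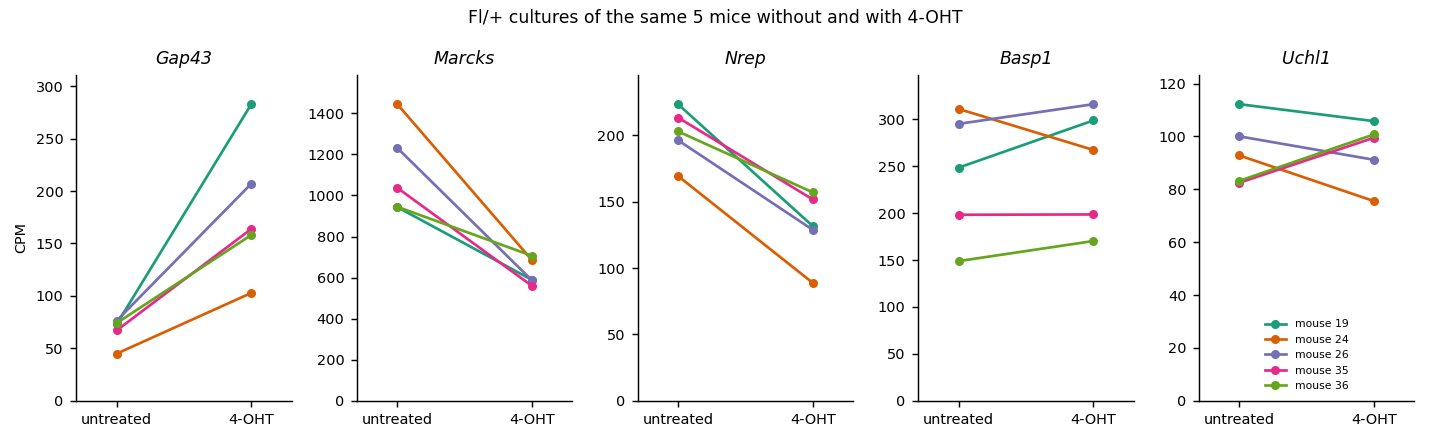
CPM of Gap43, Marcks, Nrep, Basp1 and Uchl1 in the untreated and 4-OHT-treated Fl/+ cultures, with a line for each of the 5 mice. Gap43 goes up and Marcks and Nrep go down in every mouse, and the lines of Uchl1 cross.

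Set against the untreated cultures, the Fl/Fl cultures had 6 of the 10 genes called lower. Of all 15032 genes tested, 15.1% were called lower and 15.7% higher. Plppr4 was called higher, but it had 3 to 27 counts in untreated libraries. It passed the filter on low counts through the Fl/Fl group, so its call is not counted. The groups did not overlap for 6 of the 10, Plppr4 among them, beside 23.1% of all genes tested. Gap43, Plppr1 and Plppr5 were not called. The median log2 fold change of the 10 was -0.91, beside 0.0025 over all genes tested. This comparison shares its libraries with the other 2 and is given beside them as values alone.

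Mouse numbers fall into a run below 30 and a run above 30, which in Fl/Fl coincides with labelled sex. Within the runs, the log2 ratio of mean CPM between Fl/Fl and treated Fl/+ was -1.87 for Gap43 in the lower run (3 against 3 cultures) and -0.76 in the upper (2 against 2). Plppr3 gave -3.22 and -2.03, and Plppr4 2.57 and 2.10. For 4-OHT in Fl/+, Gap43 gave 1.61 and 1.19. Labelled sex, which did not enter the choice of genes, was tested over the 10 treated cultures with genotype in the model. By edgeR 0 of the 10 growth cone genes were called, where 0% of all 16019 genes tested were called, sex-linked genes included. By DESeq2 0 of the 10 were called beside 19 of all genes. At an unadjusted p under 0.05 edgeR had 0 of the 10 beside 6.88% of all genes, and 1 of the 10 without mouse 39. Since the labels of mice 36 and 39 went against their sex-linked transcripts, this test could not show whether any of the 10 genes differed with sex.

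Other growth cone and neurite genes, and 4 lists of genes related to the 10, were drawn up from textbook roles with earlier results of these libraries known, so their counts are not independent evidence. In Fl/Fl against treated Fl/+, 14 of 29 growth cone and neurite genes tested fell and 0 rose in edgeR, beside 15% of all genes called lower and 16.8% higher. Their median log2 fold change was -0.51, beside 0.02 over all genes tested. The largest falls were in Dcx, a microtubule-binding protein of migrating neuroblasts, Dpysl3, a collapsin response mediator that regulates actin in growth cones, and Shtn1, a clutch protein linking actin to adhesion molecules. Dcx had 44.5 ± 23.3 CPM in treated Fl/+ and 7.74 ± 2.86 CPM in Fl/Fl (SD, n = 5 each, log2 fold change -2.51, SE 0.408, edgeR adjusted p = 0.00123). Dpysl3 fell from 484 ± 27.2 to 169 ± 19.9 CPM (-1.50, SE 0.0881, edgeR adjusted p = 1.43e-05). Shtn1 stood at a low level, 1.53 ± 0.981 and 0.616 ± 0.197 CPM (-1.29, SE 0.395, edgeR adjusted p = 0.0286). The other genes that fell were Mapt, Dpysl2, Crmp1, Fscn1, Enah, Evl, Vasp, Tmsb10, Dclk1, Tubb3 and Rufy3, most of which encode proteins that bind or form actin filaments and microtubules.

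With 4-OHT in Fl/+, 3 of the same 29 genes rose and 2 fell in edgeR, or 5 of 29 beside 13.8% of all genes called in either direction. DESeq2 called 10 of this list, beside 16.6% of all genes. Map1b, a microtubule-associated protein of growing axons, rose from 28.4 ± 5.67 to 75.8 ± 20.8 CPM (1.42 on the log2 scale, SE 0.190, edgeR adjusted p = 0.00127). Cotl1, which binds actin, rose from 205 ± 29.2 to 359 ± 66.1 CPM (0.81, SE 0.137, edgeR adjusted p = 0.00365), and Dclk1, a kinase related to doublecortin, from 215 ± 47.0 to 344 ± 37.7 CPM (0.68, SE 0.143, edgeR adjusted p = 0.0106). Dpysl2 and Pfn2 fell.

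Among the calmodulins, kinases, lipid kinases and lipid transferases that act on GAP43, MARCKS and BASP1, 4 of 22 tested rose and 3 fell in Fl/Fl against treated Fl/+. These 7 of 22 are close to the 31.7% of all genes called in either direction, so the count is no result about the list, and single genes are given as values. Cdk5r1, the activator of Cdk5, fell from 28.7 ± 5.47 to 15.6 ± 0.791 CPM (-0.87 on the log2 scale, SE 0.126, edgeR adjusted p = 6.54e-04), whereas Cdk5 rose from 79.5 ± 7.38 to 113 ± 14.9 CPM (0.53, SE 0.103, edgeR adjusted p = 0.00339). Calm3, 1 of 3 genes for the same calmodulin protein, fell by 0.29 on the log2 scale (SE 0.0899, edgeR adjusted p = 0.0285). With 4-OHT in Fl/+ 1 of the 22 rose and 3 fell, beside 13.8% of all genes called. Prkce, a protein kinase C, rose by 0.83 (SE 0.169, edgeR adjusted p = 0.00951), and Pip5k1b, which makes the phosphoinositide that these proteins bind, fell by 0.84 on the log2 scale (SE 0.188, edgeR adjusted p = 0.0141). Cdk5r1 fell by 0.68 on the log2 scale (SE 0.200, edgeR adjusted p = 0.0448). Cdk5, named here because it went the other way in Fl/Fl, fell with 4-OHT from 105 ± 7.84 to 79.5 ± 7.38 CPM (-0.40, edgeR adjusted p = 0.0121), and its difference between Fl/Fl and untreated Fl/+ was 0.13 (edgeR adjusted p = 0.356).

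Of the lipid phosphate phosphatase and lysophosphatidic acid genes, 2 of 13 tested rose and 1 fell in Fl/Fl against treated Fl/+, which is not above the 31.7% of all genes called. Lpar2, a lysophosphatidic acid receptor, rose from 3.65 ± 1.39 to 13.4 ± 5.04 CPM (1.89 on the log2 scale, SE 0.322, edgeR adjusted p = 0.00159), Plppr2 rose as given above, and S1pr2, a sphingosine-1-phosphate receptor, fell by 0.72 on the log2 scale (SE 0.205, edgeR adjusted p = 0.0216). With 4-OHT in Fl/+, 3 of 13 rose and 0 fell in edgeR, beside 7.34% of all genes called higher and 6.45% lower. The count depended on the tool, as DESeq2 called 7 in either direction, beside 16.6% of all genes. At an unadjusted p under 0.05 edgeR had 8, beside 29.4% of all genes. S1pr3 rose from 1.77 ± 1.04 to 17.1 ± 11.8 CPM (3.27, SE 0.647, edgeR adjusted p = 0.00820). Lpar1 rose from 1.60 ± 0.669 to 6.42 ± 2.76 CPM (2.00, SE 0.374, edgeR adjusted p = 0.00602), and the phosphatase gene Plpp2 from 1.21 ± 0.465 to 2.80 ± 0.709 CPM (1.20, SE 0.290, edgeR adjusted p = 0.0200).

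Uchl1 and Nrep were set beside genes of their pathways. The counts of genes called in these lists were near or under the shares over all genes in Fl/Fl against treated Fl/+ (31.7%). Of 8 ubiquitin hydrolase and ubiquitin genes, Rps27a fell in Fl/Fl against treated Fl/+ from 3.96 ± 0.696 to 2.00 ± 0.636 CPM (-0.96 on the log2 scale, SE 0.238, edgeR adjusted p = 0.0107). Its level is uncertain, because Rps27a has near-identical copies elsewhere and reads were counted only if uniquely mapped. Ubb fell with 4-OHT from 221 ± 16.1 to 156 ± 6.68 CPM (-0.50, SE 0.0748, edgeR adjusted p = 0.00213). Of 10 TGF-beta genes, 1 rose and 2 fell in Fl/Fl, namely Smad3 (0.40, SE 0.114, edgeR adjusted p = 0.0206), the receptor gene Tgfbr1 (-0.88, SE 0.139, edgeR adjusted p = 0.00101) and Smad2 (-0.27, SE 0.0739, edgeR adjusted p = 0.0183). With 4-OHT 3 rose and 0 fell in edgeR, beside 7.34% of all genes called higher, namely Ltbp1, which binds latent TGF-beta (1.97, SE 0.376, edgeR adjusted p = 0.00661), the receptor gene Tgfbr2 (1.19, SE 0.264, edgeR adjusted p = 0.0138) and Smad3 (0.80, SE 0.218, edgeR adjusted p = 0.0330).

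Over the 85 companion genes, of which 82 were tested, 28 were called between Fl/Fl and treated Fl/+ (7 higher, 21 lower), close to the 31.7% of all genes. Without mice 29 and 39, 17 were called (2 higher, 15 lower), beside 20% of all genes in that fit. For 4-OHT in Fl/+ 16 were called (10 higher, 6 lower), beside 13.8% of all genes, and with the mouse as a block 29 (15 higher, 14 lower), beside 25.7% of all genes. Between Fl/Fl and untreated Fl/+ 38 were called (14 higher, 24 lower), beside 30.7% of all genes, and without mice 29 and 39 22 were called, beside 18.4%. The 10 growth cone genes kept the calls given above in the fits without mice 29 and 39, without mouse 36 and with the mouse as a block.

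**Figure D4:**
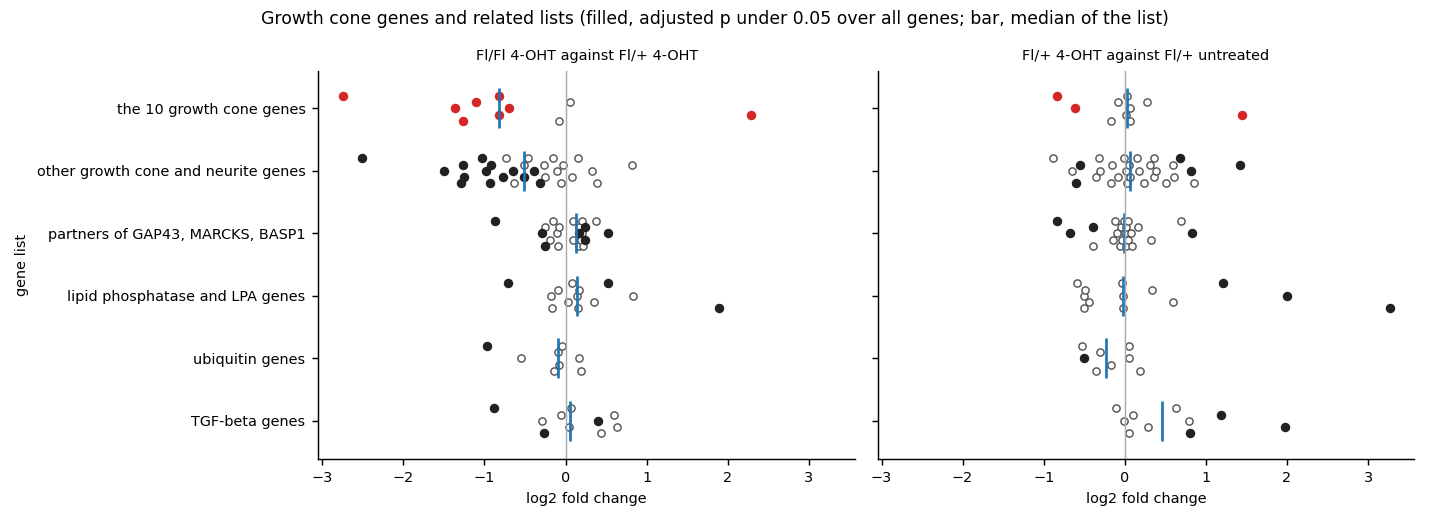
Log2 fold changes of the 10 growth cone genes (red where the edgeR adjusted p over all genes was under 0.05) and of the companion lists (black likewise, open where it was not), with the median of each list as a blue bar, for Fl/Fl against treated Fl/+ (left) and for 4-OHT in Fl/+ (right). On the left the medians of the 10 genes (-0.82) and of the other growth cone and neurite genes (-0.51) lie below 0, as does that of the ubiquitin genes (-0.09), and those of the partner, lipid and TGF-beta genes lie above it.

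Marker genes of the cell types a neurosphere culture can hold were followed beside these results. Neural stem cell markers summed to 9721 to 11754 CPM in treated Fl/+ and 8080 to 12396 CPM in Fl/Fl, and 4 of 10 (Sox2, Fabp7, Prom1 and Hes5) fell, beside 15% of all genes called lower and 31.7% in either direction. Neuron markers summed to 951 to 1108 CPM in treated Fl/+ and 786 to 952 CPM in Fl/Fl, and Slc17a6 had at most 3 counts in every library. Most of this sum was Map2, at 798 ± 60.1 and 684 ± 104 CPM (SD, n = 5 each), so it says little about the other neuron markers. In edgeR Syp rose, from 25.8 ± 4.06 to 38.0 ± 3.92 CPM (SD, n = 5 each). Slc17a7 was also called higher, but it had 4 to 11 counts in treated Fl/+ and 13 to 18 in Fl/Fl libraries and passed the filter on low counts through the Fl/Fl group, so its call is not counted. Dcx and Tubb3, which young neurons express and which stand in the growth cone list and not in this one, fell by 2.51 and 1.04 on the log2 scale. The part of neuronal content in the lower level of the growth cone genes was not tested. Of the 10 oligodendrocyte markers, Sox10, Pdgfra, Cspg4 and Mbp rose with 4-OHT in Fl/+, beside 7.34% of all genes called higher. Mog and Mag were called higher too, but Mog had 0 to 2 counts and Mag as few as 5 in untreated libraries. They passed the filter through the treated group, so their calls are not counted. Mbp went from 16.3 ± 16.7 to 118 ± 95.5 CPM and Mag from 1.01 ± 1.09 to 11.2 ± 8.53 CPM (SD, n = 5 each). The summed level, 3462 to 4511 CPM before and 3371 to 4659 CPM after, came mostly from the lineage factors Olig1 and Olig2 (2442 ± 207 and 830.4 ± 52.5 CPM untreated) and so says little about the myelin genes. In Fl/Fl the sum was 3587 to 5403 CPM. Against treated Fl/+, 0 of the 10 markers were called by edgeR, beside 31.7% of all genes, and 1 by DESeq2, beside 33.2%. At an unadjusted p under 0.05 edgeR had 2 of the 10, beside 43% of all genes. Against untreated Fl/+ 6 were called higher, Mog among them, and Olig1 lower by edgeR, beside 15.7% and 15.1% of all genes. Astrocyte markers summed to 3469 to 4589, 3995 to 5204 and 3407 to 7011 CPM in the 3 groups, with Gfap higher and S100b, Gja1 and Aldoc lower after 4-OHT and Aldoc higher in Fl/Fl than in treated Fl/+. Microglia, vessel and ependymal markers summed to 27.8 to 61.9 CPM in untreated Fl/+, 39.3 to 92.001 CPM in treated Fl/+ and 69.7 to 96.9 CPM in Fl/Fl. Most of this was the ependymal gene Foxj1, at 39.0 ± 13.3, 60.1 ± 21.0 and 81.9 ± 11.9 CPM (SD, n = 5), which rose between untreated Fl/+ and Fl/Fl (1.09 on the log2 scale, edgeR adjusted p = 0.00227), while Aif1, Cx3cr1, Ptprc, Cdh5 and Cldn5 had at most 3 counts throughout. The part of these shifts in the 4-OHT differences of Gap43, Marcks and Nrep was not tested.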

How the data were processed

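RNA of 15 aNSC libraries was analysed. Per the study's methods and the submitters' processing notes, the authors made strand-specific poly(A) libraries, sequenced short single-end reads, and ran bcl2fastq 1.8.4. They aligned to GRCm38 with STAR 2.5.4b and assigned uniquely mapped reads to Ensembl genes with featureCounts 1.5.0. The raw counts they deposited were used as given. Identifiers were matched to GENCODE vM21 symbols (53706 of 53801).

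Counts were tested with edgeR 4.0.16 (quasi-likelihood, TMM, filterByExpr with a minimum count of 10) in R 4.3.3, in each pair of groups without covariates, with Benjamini-Hochberg adjustment over all genes tested and a threshold of 0.05. DESeq2 1.42.0 and other settings were alternatives. The script was tested on simulated data. The members and lists were chosen with earlier results of these data known. Gap43 and Uchl1, with Tubb3, Tmsb10 and Dpysl2, also stand on a list the study drew up. It holds genes differentially expressed in Trrap-deleted cortex and striatum that a public database gives as Sp1 targets. The 10 genes, Trrap and Plppr2 were always named, and from each companion list up to 3 called genes with the largest absolute log2 fold change in the deletion and 4-OHT comparisons. Treated and untreated Fl/+ cultures came from the same mice, as their numbers in the labels show, and their deviations from the group means correlated within each mouse (r from 0.156 to 0.626 over 15435 genes). The 5 mice of a group are separate animals, and each gave 1 library per condition. Depth was 25720034 to 32187097 counts, and intervals cover the spread between cultures. Y-linked and Xist levels were read to check labels. Protein sequences were not analysed here.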

Additional observations from a re-analysis of the deposited data

Results flagged for a closer look

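Among the 30 sets of 5 libraries examined (10 genes in 3 groups), 2 had a library whose gap to its nearest neighbour exceeded 0.71 of the range of the set, and chance alone gives about 5% of sets such a gap. Gap43 in Fl/Fl was highest in mouse 37, at 124 CPM, where the next culture had 65.1 CPM. Plppr3 in Fl/Fl was also highest in mouse 37, at 1.97 CPM, where the next had 1.18 CPM. The same library had the highest Uchl1 (69.0 CPM), Marcksl1 (371 CPM), Plppr1 (24.6 CPM), Plppr4 (3.90 CPM) and Plppr5 (56.5 CPM) and the lowest Marcks (308 CPM) of the Fl/Fl cultures. Trrap stood at 89.2 CPM in it. Leaving it out, the difference of Gap43 between Fl/Fl and treated Fl/+ went from -1.37 to -1.69 on the log2 scale.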

How the results depend on the processing

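The calls of the 10 growth cone genes were the same under every alternative run, except that Plppr4 was not tested where 10 counts were required in every library, which left 7 and 6 calls in the 2 comparisons with Fl/Fl. Blocking on the mouse (replicate block) changed no call among the 10 for 4-OHT. Over 577 fold changes of the 10 under alternatives, 538 kept direction and side of the threshold, and the 39 that turned sign belonged to genes that were not called. The number of companion genes called moved to 17 (Fl/Fl against treated Fl/+) and 22 (against untreated) without mice 29 and 39, an alternative chosen after seeing the data that leaves 3 Fl/Fl cultures. For 4-OHT it moved from 16 to 26 with DESeq2, 26 with labelled sex, 27 with the run of mouse numbers and 29 with the replicate block. With 1 culture left out it was 20 to 28, 13 to 18 and 29 to 39 in the deletion, 4-OHT and Fl/Fl against untreated comparisons.

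Signs turned as follows with 1 culture left out, as log2 ranges. For Fl/Fl against treated Fl/+, Plppr1 ranged from -0.11 to 0.30 and Plppr5 from -0.237 to 0.0093, and Plppr5 was 0.053 without mice 29 and 39. For 4-OHT, Basp1 ranged from -0.072 to 0.18, Uchl1 from -0.039 to 0.093, Plppr1 from -0.32 to 0.12, Plppr3 from -0.20 to 0.42 and Plppr4 from -0.30 to 0.44. Without mouse 36, Uchl1 was -0.063 and Plppr3 -0.12. For Fl/Fl against untreated Fl/+, Gap43 ranged from -0.23 to 0.20 and Plppr1 from -0.20 to 0.17, and Plppr1 was 0.056 with library size alone, 0.053 with labelled sex, 0.034 with the run of mouse numbers and 0.038 without mice 29 and 39. The cause was not tested. Depth limits mainly Plppr4, with 3 to 28 counts in Fl/+ libraries.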
